A study of Mus musculus with 8 samples.

Results

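Among tumor-infiltrating CD8+ T cells of 5 mice, the moderately expanded clonotypes made up the middle of the size range. A clonotype is the set of cells of one tissue that carry the same pair of TCRα (TRA) and TCRβ (TRB) CDR3 amino acid sequences. Members were selected on their count and frequency, as clonotypes of 2 or more cells at a frequency under 0.01 (1%) of the cells of their tumor table, together with all of their cells that were not marked as multiplets. The rule gave 1018 clonotypes with 5923 cells, out of 22212 clonotypes and 33075 cells in the 5 tumor tables, or 66914 cells in the 14 tables of the series.

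The study sequenced the TCR chains of single CD8+ T cells from thymus, spleen and tumors of adult Pdcd1fl/fl control mice and Pdcd1 cKO mice, in which the E8I Cre driven from Cd8a removes floxed Pdcd1, the gene of PD-1, in CD8+ T cells. Tumors were B16-OVA, a B16 melanoma line that makes ovalbumin, or the less immunogenic B16-F10. The animals are named as in their tables, from mouse-160A to mouse-164C. The labels give neither their genotype, their tumor nor their age, so each animal is described on its own, there are no replicates of a table, and no groups were formed. Tumor cells were taken with CD8 (TIL) microbeads after digestion, thymus cells with a CD8a+ kit, and the 8 sublibraries of 1 Parse Evercode TCR experiment each hold cells of every table.

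Each T cell assembles its TRA and TRB genes once, by joining V, (D) and J segments with bases trimmed and added at the joints, and its descendants inherit both rearrangements. The CDR3 loop spans the joint and makes much of the contact with the peptide held by MHC. Cells that recognise antigen divide, so a TCR found in many cells of a tumor is usually read as a sign of clonal expansion there. In the thymus nearly all developing T cells carry a TCR of their own, because few divisions follow the completion of both chains.

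Nucleotide sequences of the junctions show what the clonotypes are made of, and the first pair shown is that of the largest member of the series. Clonotype 3 of mouse-164C, numbered as in the deposited table, joined TRAV10 to TRAJ42 and TRBV13-1_1 to TRBJ1-6. Capitals mark non-germline bases, those that differ from the germline base of the deposited alignment or have none there, and each sequence runs 5′ to 3′ from the first to the last codon of the CDR3.
mouse-164C clonotype 3 TRA: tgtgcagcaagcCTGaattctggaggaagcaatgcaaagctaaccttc
mouse-164C clonotype 3 TRB: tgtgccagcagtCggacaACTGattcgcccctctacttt
The next pair is shown because its clonotype was more frequent in the thymus than in the tumor. Clonotype 36 of mouse-160B had no non-germline base in its TRA junction and 2 in its TRB junction, and joined TRAV12-1_1 to TRAJ28 and TRBV12-2 to TRBJ2-7.
mouse-160B clonotype 36 TRA: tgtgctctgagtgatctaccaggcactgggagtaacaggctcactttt
mouse-160B clonotype 36 TRB: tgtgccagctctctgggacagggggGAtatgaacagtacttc
The last of these is the TRB junction of clonotype 21 of mouse-160A, shown because the study names its amino acid sequence, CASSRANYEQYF, as recognising an ovalbumin peptide. It joined TRBV12-1 to TRBJ2-7 with 10 non-germline bases.
mouse-160A clonotype 21 TRB: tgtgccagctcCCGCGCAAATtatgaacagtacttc

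The members held 17.9% of all tumor cells (exact 95% binomial interval 17.5 to 18.3), almost as much as the 33 clonotypes at or above the 0.01 limit, called dominant here, which held 18.1% (17.7 to 18.5). The other 64.0% of the cells each had a TCR seen in no other cell of their table. By animal, the members numbered 321 with 1683 cells in mouse-160B, 252 with 1605 in mouse-164B, 190 with 1442 in mouse-164C, 161 with 803 in mouse-160C and 94 with 390 in mouse-160A. These intervals, and all others given, cover counting error only and not the spread between animals. Since the rule is a count and a frequency, these shares describe the selection and were not tested.

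The share of tumor cells in members was 27.2% (26.1 to 28.4) in mouse-164B, 21.5% (19.7 to 23.5) in mouse-160A, 21.4% (20.1 to 22.7) in mouse-160C, 20.2% (19.3 to 21.1) in mouse-160B, and as little as 10.9% (10.3 to 11.4) in mouse-164C. Mouse-164B was highest and mouse-164C lowest, and the intervals of the other 3 animals overlapped. The composition of the rest differed much more. Dominant clonotypes held 58.0% of the tumor cells of mouse-160A, 49.4% in mouse-160C, 23.4% in mouse-164B, 11.8% in mouse-164C and 1.63% in mouse-160B. The tables held 1812 to 13283 tumor cells, with mouse-160A the smallest and mouse-164C the largest, so both ends of the rule shift with depth. Thinned in expectation to 1812 cells, the tables had members with 7.60% (mouse-164C) to 21.5% (mouse-160A) of their cells.

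**Figure D1:**
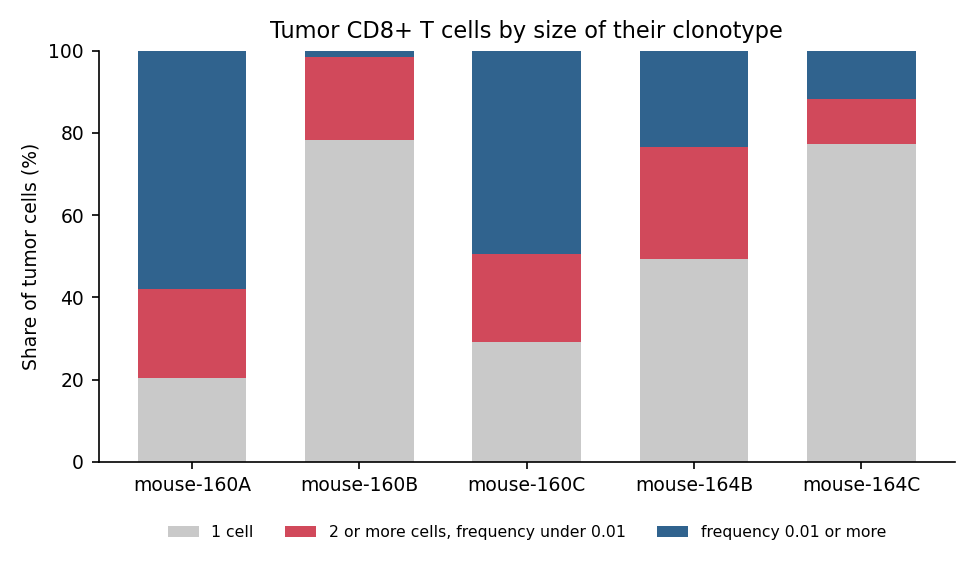
Share of tumor cells (vertical axis, percent) in clonotypes of 1 cell, in moderately expanded clonotypes and in clonotypes at a frequency of 0.01 or more, for the tumor table of each of 5 animals (bars). The moderately expanded share lies between 10.9% and 27.2%, while the dominant share runs from 1.63% to 58.0%.

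Most members were small. Exactly 2 cells made up 453 of the 1018 members (44.5%), the median was 3 cells, and 121 members had more than 10. The largest had 132 cells in mouse-164C, 79 in mouse-160B (2 clonotypes, numbers 2 and 3), 57 in mouse-164B, 33 in mouse-160C and 17 in mouse-160A. At the upper limit, the largest member and the smallest dominant clonotype stood at 0.994% and 5.58% in mouse-164C, 0.967% and 1.14% in mouse-164B, 0.948% and 1.63% in mouse-160B, 0.938% and 1.66% in mouse-160A, and 0.878% and 1.01% in mouse-160C. In mouse-160C and mouse-164B the limit thus cut through neighbouring sizes (33 against 38 cells and 57 against 67), whereas in mouse-164C it fell in a gap between 132 and 741 cells. At the lower limit, 21161 clonotypes had 1 cell.

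The cells of a member were spread over the experiment. Of the 1018 members, 970 (95.3%) were found in more than 1 sublibrary and 888 (87.2%) in more than 1 loading well. Pairs of cells of the same member fell in the same sublibrary in 12.1% to 13.1% of cases, where pairs of any tumor cells did so in 12.5% to 12.6%. A cell barcode has 4 parts, and 48 of 62549 such pairs shared 3 of them. Counting such cells as 1 in all clonotypes left 1018 members, with 18.3% of tumor cells. It gave 162 against 161 in mouse-160C and 189 against 190 in mouse-164C.

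Pooled over the animals, transcript depth lay between that of the smaller and larger clonotypes. Member cells had a median of 3 TRA and 4 TRB transcripts, against 2 and 2 in 1-cell clonotypes and 5 and 5 in dominant clonotypes. This order did not hold for every animal. In mouse-164C the TRB median was 5 in members and 4 in dominant clonotypes. In mouse-160A the TRA median was 2 in both members and 1-cell clonotypes. Only 1 transcript of each chain supported 5.93% of member cells (5.34 to 6.56), 18.7% of the cells of 1-cell clonotypes (18.2 to 19.2) and 2.19% of dominant cells (1.83 to 2.59). Among members this share ran from 3.45% in mouse-160B to 8.04% in mouse-164B. Requiring at least 2 transcripts of each chain left 597 members.

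A question of the study was how far the repertoire of the tumor is shared with that of the thymus of the same animal. In all, 98 of the 1018 members were found there (9.63%, 7.89 to 11.6), and they held 986 tumor cells and 384 thymus cells. By animal, the count was 51 of 252 in mouse-164B (20.2%, 15.5 to 25.7), 12 of 94 in mouse-160A (12.8%, 6.77 to 21.2), 30 of 321 in mouse-160B (9.35%, 6.39 to 13.1), 3 of 190 in mouse-164C (1.58%, 0.327 to 4.55) and 2 of 161 in mouse-160C (1.24%, 0.151 to 4.42). The intervals of mouse-160A, mouse-160B and mouse-164B lay wholly above those of mouse-160C and mouse-164C. Without mouse-164B, which held more than any other animal, the pooled share was 6.14%.

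Clonotypes of 1 tumor cell were found in the thymus of their animal much less often, in 52 of 21161 cases (0.246%, 0.184 to 0.322). The values were 1.62% for mouse-160A, 0.585% in mouse-164B, 0.364% in mouse-160C, 0.276% in mouse-160B and 0.0681% in mouse-164C, below the members' share in 5 of 5 animals. In mouse-160C the 2 intervals overlapped (0.0994 to 0.930 for 1-cell clonotypes). Dominant clonotypes were found there in 3 of 33 cases, 2 of them in mouse-164B and 1 in mouse-164C. A clonotype's chance of being sampled grows with its size in the animal, and the part of sampling in these differences was not tested.

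Thymus tables of other animals gave the background. Each tumor table was set against the thymus of 6 other mice, and the highest share of members found in any of these was 2.48% for mouse-160C, 2.13% for mouse-160A, 1.05% for mouse-164C, 0.397% for mouse-164B and 0.312% for mouse-160B. The own thymus exceeded this by far in mouse-160A, mouse-160B and mouse-164B. In mouse-160C the own value of 1.24% was below its highest other-animal value, and in mouse-164C the own 1.58% stood little above it, with that value inside its interval, so in these 2 animals no excess over the background was detectable at this depth. None of the 98 own-thymus matches involved a tumor and a thymus barcode that agreed in every part but the loading well, while 7 of 21 matches in other thymus tables, 0 of 10 in spleen tables and 3 of 24 in other tumor tables did. For dominant clonotypes, the highest share in another thymus was 60% for mouse-164B, 40% for mouse-160A and 20% for mouse-160C. Their own-thymus shares were 40%, 0% and 0%. For mouse-160B both values were 0%, and for mouse-164C they were 0% elsewhere and 50% in its own thymus, 1 of 2 clonotypes.

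**Figure D2:**
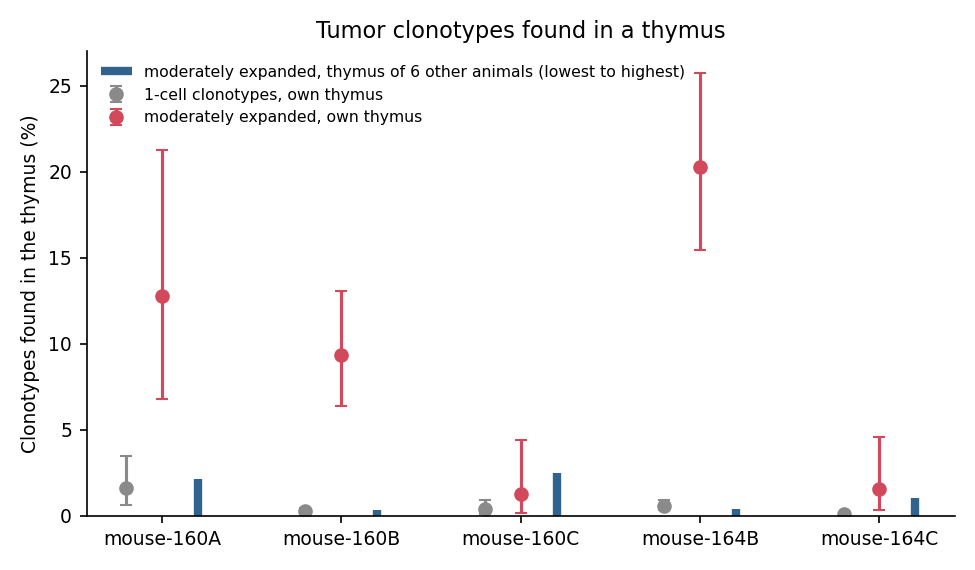
Share of tumor clonotypes found in a thymus (vertical axis, percent) for each of 5 animals. Points are moderately expanded clonotypes and 1-cell clonotypes in the thymus of the same animal with exact 95% intervals, and thick lines run from the lowest to the highest share of moderately expanded clonotypes found in the thymus of 6 other animals. The own-thymus share stands above both in mouse-160A, mouse-160B and mouse-164B, and at 1.24% and 1.58% in mouse-160C and mouse-164C it does not stand clear of the other thymus tables.

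Within the members, the pooled share found in the thymus was higher in the larger size classes, which was not tested. It was 4.42% (2.72 to 6.74) for members of 2 cells, 10.5% (7.46 to 14.2) for 3 to 5 cells, 15.8% (9.34 to 24.5) for 6 to 10 cells, 17.6% (9.47 to 28.8) for 11 to 20 cells and 26.4% (15.3 to 40.3) for 21 or more cells, the last from 53 members. The widest span was in mouse-164B, from 8.65% of 104 members of 2 cells to 58.8% of 17 members of 21 or more. Without mouse-164B the values were 3.15%, 7.54%, 12.3%, 6.25% and 11.1%, so the 3 upper size classes no longer stood in order. In mouse-160C and mouse-164C, 0 of 9 and 0 of 16 members of 21 or more cells were found, with upper limits of 33.6% and 20.6%.

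**Figure D3:**
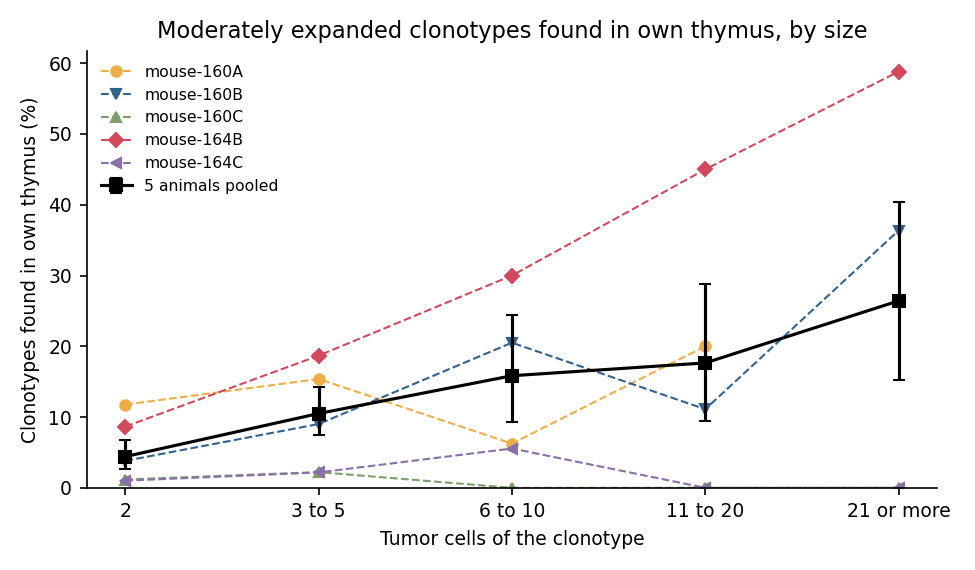
Share of moderately expanded clonotypes found in the thymus of the same animal (vertical axis, percent) by the number of tumor cells of the clonotype (horizontal axis), pooled over 5 animals with exact 95% intervals (squares) and for each animal. The pooled share goes from 4.42% to 26.4%, mouse-164B reaches 58.8%, and mouse-160A has no member of 21 or more cells.

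Individual members show how far both tissues could differ. Clonotype 36 of mouse-160B, whose junctions are printed above, had 10 tumor cells (0.120%, 0.0576 to 0.221) and 55 thymus cells (0.956%, 0.721 to 1.24), the highest thymus count of any member. Clonotype 61 of mouse-164B had 8 tumor cells and 14 thymus cells, and joined TRAV7D-3 to TRAJ24 and TRBV12-2 to TRBJ2-1. Both were relatively more frequent in the thymus than in the tumor, although the intervals of clonotype 61 overlapped (0.0586 to 0.267% of the tumor and 0.101 to 0.310% of the thymus). In all, 16 of the 98 shared members had more thymus cells than tumor cells, 9 of them in mouse-160B.

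Others were relatively more frequent in the tumor. Clonotype 3 of mouse-160B had 79 tumor cells (0.948%) and 5 thymus cells (0.0869%), with TRAV7-4 and TRBV2. Clonotype 9 of mouse-164B had 57 tumor cells (0.967%) and 3 thymus cells (0.0396%), with TRAV12-2 and TRBV29. Clonotype 18 of mouse-160A had 12 tumor cells (0.662%) and 7 thymus cells (0.322%), with TRAV3-1 and TRBV21_1, and its intervals overlapped (0.343 to 1.15% of the tumor and 0.130 to 0.662% of the thymus). The most thymus cells of a member were 1 in mouse-160C (clonotype 129, with 3 tumor cells) and 2 in mouse-164C (clonotype 79, with 4 tumor cells). Over the 98, 50 rested on 1 thymus cell, and 48 (4.72% of all members) had 2 or more.

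The 132 cells of clonotype 3 of mouse-164C had no partner in the thymus, where 0 of 6059 cells carried the pair, which allows a share of up to 0.0609% by the exact interval. Clonotype 20 of mouse-160C, the largest there with 33 cells, TRAV9-4 and TRBV12-1, was also at 0 in the thymus. So was clonotype 21 of mouse-160A, the member with the TRB sequence that the study names, which had 8 tumor cells (0.442%, 0.191 to 0.868) in 6 of the 8 sublibraries and a median of 9 TRB transcripts. The upper limit of its share of the thymus was 0.1695%. Its TRA joined TRAV5-4 to TRAJ32, and neither of its chains was in another clonotype of 2 or more cells of that tumor. The study itself reports, for an experiment of this series, a clonotype with this TRB from tumor and not from thymus. Its report draws on the same data and is not an independent finding.

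**Figure D4:**
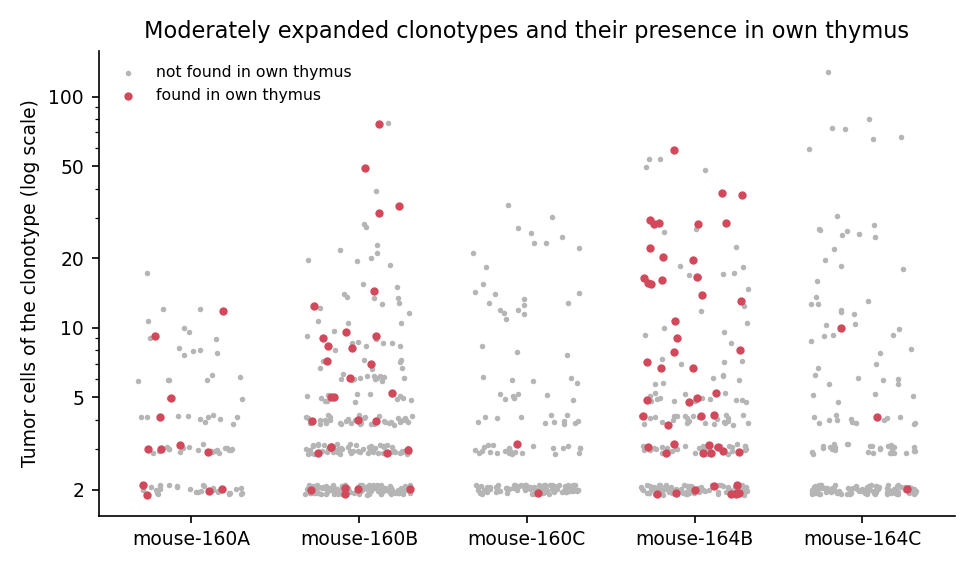
Every moderately expanded clonotype as a point, by animal (horizontal axis, with random side shift and slight vertical shift) and by its number of tumor cells (vertical axis, log scale). Filled larger points were found in the thymus of the same animal; they number 51 in mouse-164B, and the largest clonotype of all, with 132 cells in mouse-164C, is not among them.

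Members found in the own thymus had longer TRB junctions on average. The mean TRB CDR3 length was 14.7 residues in the 98 and 13.8 in the 920 others, and it was longer in the shared ones in 5 of 5 animals: 14.6 against 13.2 for mouse-160A, 14.9 against 13.9 for mouse-164B, 14.5 against 13.8 in mouse-160C, 14.4 against 13.9 in mouse-160B, and 14 against 13.97 in mouse-164C. Mouse-160C and mouse-164C contributed only 2 and 3 shared members. The TRA CDR3 length was 13.6 residues in both sets. The size classes themselves barely differed, with a mean TRB length of 13.9 residues in members as in 1-cell clonotypes and 13.5 in dominant clonotypes.

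TRBV29 (chr6:41248328-41248815, plus strand, GRCm39) was the V gene of 21 of the 98 thymus-shared members (21.4%, 13.8 to 30.9) and of 73 of the 920 others (7.93%, 6.27 to 9.87). It was more frequent in the shared members of the 3 animals with 12 or more of them, at 33.3% against 10.98% in mouse-160A, 13.3% against 7.56% in mouse-160B and 25.5% against 9.95% in mouse-164B. TRBV14 (chr6:41112079-41112550, plus strand) followed, in 13 of the 98 (13.3%, 7.26 to 21.6) against 6.41% (4.92 to 8.20) of the others. These genes were picked for their share among the 98, so the contrasts are descriptions. No test over animals was run, since no animals can be taken as replicates of one condition.

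Many members shared a chain with another clonotype of their tumor. Counting clonotypes of 2 or more cells, neither chain recurred in 728 members (71.5%), the TRA alone recurred in 65, the TRB alone in 94 and both in 131 (12.9%). Both chains recurred, each in a different partner, in 41.6% of the members of mouse-160C and 23.4% in mouse-160A, against 2.18% in mouse-160B, 6.75% in mouse-164B and 9.47% in mouse-164C. Of the 131 members whose chains both recurred, 0 were found in the thymus (upper limit 2.78%), while 78 of the 728 with neither were (10.7%, 8.56 to 13.2), as were 6 of the 65 with the TRA alone (9.23%) and 14 of the 94 with the TRB alone (14.9%). The animals contributed unequally: 67 of the 131 were in mouse-160C, where 0 of the 66 members with neither were in the thymus either, and 18 were in mouse-164C, where 2 of 139 were. In mouse-160A it was 0 of 22 against 11 of 54, for mouse-164B 0 of 17 against 39 of 198, and for mouse-160B 0 of 7 against 26 of 271. In mouse-160A and mouse-160C dominant clonotypes held 58.0% and 49.4% of the cells.

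**Figure D5:**
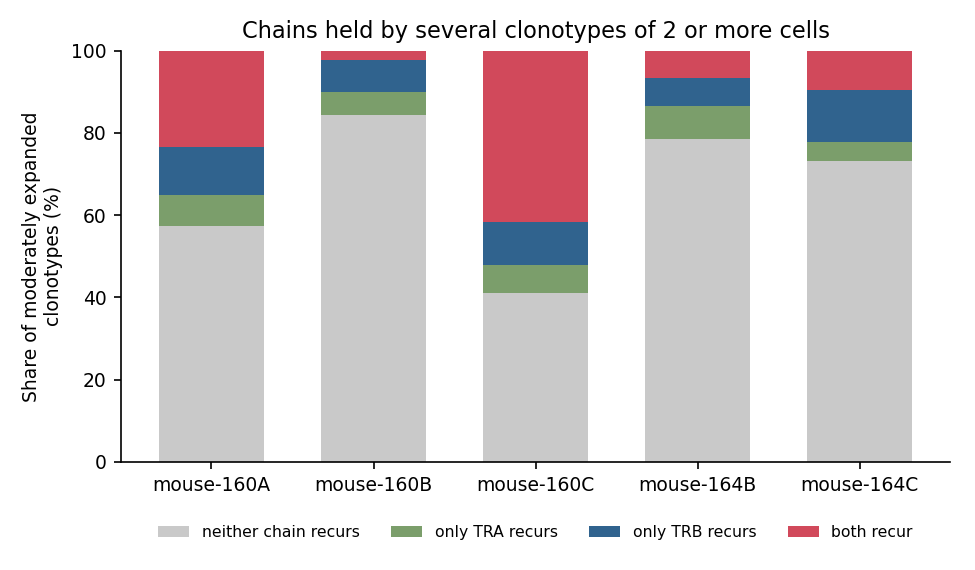
Share of moderately expanded clonotypes (vertical axis, percent) by whether their TRA, their TRB, both or neither is also held by another clonotype of 2 or more cells of the same tumor, for 5 animals (bars). Both chains recur in 41.6% of those of mouse-160C and in 2.18% of those of mouse-160B.

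The shared chain was often that of a dominant clonotype. The TRB of 45 members (4.42%, 3.24 to 5.87) was also that of a dominant clonotype, at 13.8% in mouse-160A, 13.7% in mouse-160C, 2.11% in mouse-164C, 1.19% in mouse-164B and 0.935% in mouse-160B. The TRA of 99 members (9.73%) was that of a dominant clonotype. Among 1-cell clonotypes the shares were 1.12% for TRB and 3.50% for TRA. In mouse-160A they were 9.70% for TRB and 22.1% for TRA, beside 13.8% and 23.4% of members, and in mouse-160C 8.56% and 17.5%, beside 13.7% and 34.8%. In 29 members both chains came from dominant clonotypes, 10 of them in mouse-160A and 17 in mouse-160C. Clonotype 11 of mouse-160A, with 12 cells, is an example: its TRA (TRAV14-3) was that of clonotype 2 of 206 cells and its TRB (TRBV13-2) that of clonotype 1 of 225 cells. Of the 115 members with a chain of a dominant clonotype, 0 were found in the thymus; 61 of them were in mouse-160C and 15 in mouse-164C, where 1.24% and 1.58% of all members were found there, and the rest were 25 in mouse-160A, 11 in mouse-164B and 3 in mouse-160B. The junctions of clonotype 11 are printed, with non-germline bases in capitals, because the amino acid sequence of each is also that of a dominant clonotype.
mouse-160A clonotype 11 TRA: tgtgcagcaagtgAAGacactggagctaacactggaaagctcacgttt
mouse-160A clonotype 11 TRB: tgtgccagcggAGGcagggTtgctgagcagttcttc

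Frequent chains were also present where no pair was read. The TRB of 75.3% of members, and of 23.9% of 1-cell clonotypes, was seen in at least 1 barcode that had a TRB and no TRA. The TRB of clonotype 8 of mouse-160A (TRBV13-1_1 with TRBJ2-4, 17 cells, the largest member there) was in 527 such barcodes, and that of clonotype 16 of mouse-160C (TRBV1 with TRBJ2-2, 14 cells) in 675. Each was thus far more common as a lone chain than in any pair. The chains of 64.5% of members also stood together in a barcode marked as a multiplet, against 3.02% of 1-cell clonotypes. The part of multiplets that carry no mark, or of chain RNA from other cells, in the shared chains was not tested.

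Single chains that recurred over members had high counts in a few cases. In mouse-160C, 16 members held 1 TRA sequence, most often assigned to TRAV8D-2_1 with TRAJ12, and 11 held the TRBV1 and TRBJ2-2 chain. In mouse-160A, 10 held a TRA of TRAV14-3 and TRAJ52 and 8 the TRBV13-1_1 and TRBJ2-4 chain. Over animals, 30 of the 840 TRA sequences and 6 of the 877 TRB sequences of members were found in members of more than 1 animal. Counted beyond members, the named chains were more widespread. The TRBV1 and TRBJ2-2 chain was in 7 tables of 6 other animals, and the TRBV13-1_1 and TRBJ2-4 chain in 8 tables of 6. The TRAV8D-2_1 and TRAJ12 chain was in 11 tables of 6 other animals, and the TRAV14-3 and TRAJ52 chain in 8 tables of 5. One TRA, assigned to TRAV3-1 or TRAV3-3_1 with TRAJ28, was in 24 members over all 5 animals, and it lacks the closing phenylalanine or tryptophan of a usual CDR3. Such ends occurred in 52 members for TRA (5.11%, 3.84 to 6.65) and 0 for TRB (upper limit of the exact interval 0.362%), against 3.58% and 0.151% of 1-cell clonotypes.

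An additional chain was read in many cells. A further TRA was recorded in 23.8% of member cells (22.7 to 24.9) and a further TRB in 26.6% (25.5 to 27.8), close to the 22.1% and 26.9% of 1-cell clonotypes. T cells can rearrange TRA on both chromosomes, and fewer of them keep 2 productive TRB genes. The same extra chain was present in at least 50% of the cells of 29 of the 272 members with 5 or more cells for TRA (10.7%) and of 19 for TRB (6.99%). In clonotype 5 of mouse-164C (TRAV8N-2 with TRBV15), 56 of 70 cells also held the same TRAV10 chain.

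Some clonotypes mirrored each other, in that they shared one chain and the cells of one also held the other's differing chain. A pair was counted where at least 50% of the cells of the smaller clonotype carried, as additional chain, the one chain by which it differed from the larger. There were 87 such pairs, 36 in TRA and 51 in TRB, with 79 distinct smaller members. The larger clonotype was dominant in 60 of them, and it was dominant in 47 of the 51 TRB pairs. Where the smaller member had 2 cells, 1 cell met the limit, as for clonotype 52 of mouse-160A beside clonotype 2 of 206 cells. How many pairs would arise from frequent additional chains alone was not tested.

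In 20 of the 87 pairs the relation held in both directions, at 50% or more of the cells of each clonotype. Clonotypes 4 and 6 of mouse-164C shared a TRAV6N-5 chain and had 72 and 60 cells: 55 of the 72, with TRBV12-2 as first chain, also carried the TRBV31_1 chain of clonotype 6, and 40 of the 60 carried the TRBV12-2 chain. Clonotypes 13 and 14 of mouse-164B, with 28 and 27 cells and a TRAV8D-2_1 chain, mirrored each other in TRBV29 and TRBV14, in 20 and 24 cells. They had 1 and 7 thymus cells. Clonotypes 5 and 12 of mouse-164C shared a TRBV15 chain and mirrored each other in TRAV8N-2 and TRAV10, in 56 of 70 and 19 of 26 cells. The clonotype table lists each of these as 2 members with sizes of their own. Whether such pairs are single lineages was not tested. Pairs with a dominant clonotype were lopsided: 9 of the 17 cells of clonotype 8 of mouse-160A carried the TRBV23_1 chain of clonotype 2, and 2 of the 206 cells of clonotype 2 carried that of clonotype 8.

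Nucleotide sequences were at hand for 82.4% of the member cells, complete in 4 animals and 27.7% in mouse-164C. Of 896 members with 2 or more annotated cells, 859 (95.9%, 94.4 to 97.1) had 1 nucleotide sequence in each chain. By animal this was 98.9% in mouse-160A, 98.5% in mouse-164C, 97.2% in mouse-160B, 96.4% in mouse-164B and 89.4% in mouse-160C. Where a chain had a further sequence, it differed from the first by 1 base in 35 cases, by 2 in 4 and by 3 in 1.

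In 3 members both chains came in more than 1 nucleotide version, and in each the versions were linked, so that each TRA version was found with 1 TRB version only. Clonotype 42 of mouse-160C (TRAV8D-2_1 with TRAJ12, TRBV4 with TRBJ2-2) split into 6 and 6 cells, clonotype 74 of mouse-160B (TRAV3-3_1 with TRAJ53, TRBV20 with TRBJ2-7) into 3 and 3, and clonotype 125 of mouse-160B (TRAV14-1 with TRAJ16, TRBV5 with TRBJ2-3) into 2 and 2. None of the 3 was in the thymus. The versions of the 2 larger ones follow, with the differing bases in capitals, since an amino acid clonotype here joins cells whose nucleotide sequences differ in both chains.
mouse-160C clonotype 42 TRA, first version: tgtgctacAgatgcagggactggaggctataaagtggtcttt
mouse-160C clonotype 42 TRA, other version: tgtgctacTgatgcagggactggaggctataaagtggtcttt
mouse-160C clonotype 42 TRB, first version: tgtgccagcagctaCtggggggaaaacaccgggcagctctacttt
mouse-160C clonotype 42 TRB, other version: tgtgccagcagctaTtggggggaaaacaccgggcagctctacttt
mouse-160B clonotype 74 TRA, first version: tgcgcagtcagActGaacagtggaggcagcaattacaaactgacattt
mouse-160B clonotype 74 TRA, other version: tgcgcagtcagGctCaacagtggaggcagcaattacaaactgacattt
mouse-160B clonotype 74 TRB, first version: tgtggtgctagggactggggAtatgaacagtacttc
mouse-160B clonotype 74 TRB, other version: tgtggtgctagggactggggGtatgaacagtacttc
The differing bases do not change the encoded residues, since both versions belong to 1 amino acid pair. By contrast, the largest member with more than 1 TRB version, clonotype 6 of mouse-164B, had 54 of its 55 annotated cells in one and 1 in the other.

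Gene usage of the members was broad. The TRBV genes with the highest median share over the 5 animals were TRBV13-2 (chr6:41098330-41098766, plus strand) at 8.95%, TRBV12-1 (chr6:41090484-41091001, plus strand) and TRBV29 at 8.10% each, against 10.3%, 8.77% and 7.60% in 1-cell clonotypes. TRBJ2-7 (chr6:41520744-41520790, plus strand) led the J genes, at 16.5% in mouse-160B to 24.7% in mouse-164C, with a median of 20.2% in members and 20.1% in 1-cell clonotypes. TRBJ2-5 and TRBJ2-1 followed, at medians of 12.5% and 11.9%.

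Of the TRA genes, TRAV12-1_1 and TRAV3-1 (chr14:52818122-52818670, plus strand) had medians of 9.35% and 9.32%, followed by TRAV6-6 at 5.32%. TRAV3-1 was more frequent in members than in 1-cell clonotypes in 5 of 5 animals, from 7.17% against 6.39% in mouse-160B to 11.7% against 6.47% in mouse-160A, and so was TRAJ30 (chr14:54427323-54427381, plus strand), with medians of 6.85% and 5.73%. TRBV19 and TRAJ27, chosen after their values were seen, were also higher in 5 of 5 animals, at medians of 6.23% against 3.64% and 4.37% against 3.30%. For these 4 genes the 1-cell value lay inside the members' interval in each animal, except for TRAJ30 in mouse-164B (9.92%, 6.52 to 14.3, against 6.23%) and TRBV19 in mouse-160A (8.51%, 3.75 to 16.1, against 2.97%). Members that held the same chain were counted separately. In mouse-164C, 19 members used TRAV3-1, and 10 members held 1 TRA of TRAV3-1 and TRAJ22. That TRA was also in dominant clonotype 2 of 827 cells and in 320 of the 1-cell clonotypes. The TRA of TRAV3-1 or TRAV3-3_1 with TRAJ28 was in 3 to 6 members of each animal. TRAV6D-7 was the one gene at a median of 1% or more whose share was over 2 times that of 1-cell clonotypes in 4 animals, and this rested on 1 to 4 members per animal. Genes under 0.5 times the 1-cell share in at least 4 animals all had medians below 1% in members. Among them, 2 were chosen after their values were seen. TRAV4-3 was under that limit in 5 of 5 animals, at medians of 0.312% against 1.10%, with 0 or 1 member in each. TRAV7-3 was under it in 4 of 5, at 0.397% against 2.03%, with 0 or 1 member in each of the 4. In mouse-160B it was higher, at 11 of 321 members (3.43% against 2.35%). For both genes the 1-cell value lay inside the members' interval in each animal. No member carried the chains of invariant NKT-like cells (TRAV11 or TRAV11D with TRAJ18) or of MAIT-like cells (TRAV1 with TRAJ33). For 0 of 1018 members the upper limit of the exact interval is 0.362%. TRG, TRD and immunoglobulin chains could not be assessed, since members are TRA and TRB pairs and the libraries were made for those 2 chains.

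Within single animals, usage departed further from that of 1-cell clonotypes. In mouse-160A, TRBV29 made up 13.8% of members (7.57 to 22.5) against 5.93%. In mouse-160B, TRBV16 stood at 2.49% (1.08 to 4.85) against 8.00%, as did TRAJ22 at 1.87% (0.689 to 4.02) against 6.71%. In mouse-160C, TRBV4 stood at 8.07% (4.37 to 13.4) against 2.00% and TRAV8D-2_1 at 10.6% (6.27 to 16.4) against 4.37%, where 15 of the 17 members with TRAV8D-2_1 joined it to TRAJ12. There, 16 members held 1 TRA sequence most often assigned to these 2 genes, and each was counted. That TRA was also in dominant clonotype 5 of 174 cells and in 25 of the 1-cell clonotypes. In mouse-164B, TRBV14 stood at 10.3% (6.85 to 14.7) against 5.71%, and in mouse-164C, TRBV5 at 9.47% (5.71 to 14.6) against 3.88%. The gene with the widest gap in an animal was chosen by that gap, so these are descriptions of single tables, and no gene had the widest TRBV gap in more than 1 animal.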

How the data were processed

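Members, gene lists and alternatives were chosen with earlier results of these data known. Per the authors' methods, Evercode TCR libraries were sequenced on a NovaSeq and assembled with the Parse Biosciences TCR pipeline, whose version is not given in the sources used here. Barcode tables, as deposited, hold read and transcript counts per chain and mark multiplets, which were left out. Clonotype tables, as deposited, hold cell counts per CDR3 pair and the same as a fraction of the table, and each count equalled the tally of barcodes. The deposited annotation tables give nucleotide CDR3 sequences, held here for 29.8% of the counted cells of mouse-164C tumor, 40.4% of mouse-164B thymus, 92.3% of mouse-160B thymus and 100% of the others. The animal of a table came from its deposited name, and the 8 sublibraries were left ungrouped. Depth was 1812 to 13283 cells in tumor tables and 2175 to 7575 in thymus tables of the same animals.

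Shares carry exact (Clopper–Pearson) 95% intervals (scipy 1.17.1). No p-value was computed, because cells of an animal are not replicates. A chain recurred where another clonotype of 2 or more cells of the same tumor held it. Named clonotypes were, per tumor, the largest member and the one with the most thymus cells, plus members with the TRB the study names and the one with most TRB nucleotide versions. Named genes had the highest median share, or a median of at least 1% and a share over 2 times or under 0.5 times that of 1-cell clonotypes in at least 4 animals. Clonotypes with chains of dominant ones, mirrored or linked clonotypes and the other genes were chosen after their values were seen. Coordinates are those of GRCm39, the build of the submitters' processing notes, for gene names that match the annotation exactly; names ending in _1 are the files' own. Counting and thinning were tested on simulated data. Alternatives were nucleotide clonotypes, transcript and chain filters, other limits, thinning and leaving out clonotypes, barcodes, sublibraries or animals.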

Additional observations from a re-analysis of the deposited data

How the results depend on the processing

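The main values were 1018 members, 17.9% of tumor cells, 9.63% of members in the own thymus and 4.42% with the TRB of a dominant clonotype. Of 37 values under alternatives other than leaving out a sublibrary or an animal, 16 stayed within 1.5 times the main count or inside the main interval. With at least 2 transcripts per chain these were 597 members, 17.0%, 7.04% and 3.01%. Without barcodes that held an additional chain there were 614 members, with 16.1% of cells and 2.12% with such a TRB. From 3 cells upward there were 565, with 15.2% of cells and 13.8% in the thymus. With the tumor tables thinned to 1812 cells, but thymus tables and dominant TRB chains kept at full depth, there were 364, at 16.6%, 15.0% and 7.59%. Fewer cells or clonotypes enter each of these by construction. With nucleotide pairs of annotated cells the pooled share of cells was 20.3%, with only 3961 of the 13283 tumor cells of mouse-164C annotated. By animal it was 8.61% in mouse-164C, against 10.9%, and 20.1% to 27.05% in the others, against 20.2% to 27.2%. The share in the thymus was 13.2% in mouse-164B and 8.07% in mouse-160B, whose thymus annotation is partial, against 20.2% and 9.35%. The share of cells was 13.9% below a frequency of 0.005 and 15.3% without clonotypes of more than 1 animal, which also lowered the share with a TRB of a dominant clonotype to 1.96%.

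With alternatives chosen after seeing the data, members whose chains both occurred in no other clonotype of 2 or more cells held 11.2% of cells and, by construction, 0% with such a TRB, and 4.72% of members had at least 2 thymus cells. Leaving out 1 sublibrary or 1 animal at a time gave 697 to 924 members, 15.9% to 22.6% of cells, 6.14% to 11.5% in the thymus and 2.68% to 6.03% with such a TRB. The share in the thymus was lowest without mouse-164B and the share with such a TRB lowest without mouse-160C. At 2 or more transcripts per chain, 0 members of mouse-160C and mouse-164C were found in their thymus, against 2 and 3, and the share with a TRB of a dominant clonotype was higher in mouse-164C (4.12% against 2.11%) and mouse-164B (1.36% against 1.19%).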

Other observations

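Members and thymus cells were also compared outside the own pair of tissues. Over 10 comparisons of a tumor table with the spleen of mouse-155A or mouse-155C, members matched 0 to 2 clonotypes each and 10 in all. Over 20 comparisons with the tumor of another animal they matched 0 to 8 each and 24 in all, and the highest, 8, was between members of mouse-164C and the tumor of mouse-160B, where 3 of the 8 matches had barcodes that differed in the loading well only.

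The TRB junctions of members held a mean of 3.65 (mouse-160C) to 4.88 (mouse-160A) such bases, and those of 1-cell clonotypes 4.10 (mouse-164C) to 4.46 (mouse-160A). Junctions of TRB without any were 3.17% to 9.52% of the annotated members of a tumor.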
